A study of Homo sapiens with 20 samples.

Results

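The keratin genes were taken as the rows of the expression table whose symbol is KRT followed by a number and at most 1 further letter, which gave 46 of 36076 genes. Keratin-associated protein genes (KRTAP) and the 2 symbols ending in P, KRT87P and KRT42P, were left out. The 46 genes comprised 22 type I and 24 type II keratins. By the tissue for which they are best known, 5 were keratins of simple epithelia, 17 of stratified epithelia, 14 of hair and 5 of the inner root sheath of the hair follicle, and 5 belonged to none of these classes. A further 9 keratins of the class table (KRT1, KRT24, KRT25, KRT26, KRT28, KRT35, KRT37, KRT38 and KRT72) were not analysed here.

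The study treated human lung cancer cell lines with decitabine (DAC), a cytosine analog that is built into DNA and traps the DNA methyltransferases. mRNA-seq was available for 6 established lines, A549, CL1-0, CL1-5, PC9, H1299 and H1792. In each line, a Mock library came from cells that received PBS and a DAC library from cells that received 100 nM DAC for 3 days and then grew for 3 days without the drug. Each line and treatment had 1 library, 12 in all, so a difference within a line has no replicate check and the cell lines are the only replicates. Omni-ATAC-seq, which maps open chromatin with a transposase, was available for A549, CL1-5, PC9 and H1299 under the same treatments, again with 1 library each (8 in all). The lines are grown as pure cultures, and they stand for the tumors they came from only as single lines.

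Keratins are the intermediate filament proteins of epithelial cells. Their filaments are obligate heteropolymers in which an acidic type I keratin pairs with a basic type II keratin, so that the RNAs of partners are commonly found in the same cells. KRT8 and KRT18 are the partners of simple epithelia such as the lung alveolus, and KRT7 and KRT19 accompany them in ducts and airways. KRT5 with KRT14 marks basal cells of stratified epithelia, and KRT4 with KRT13 the layers above the basal cells of wet stratified epithelia. KRT6 and KRT16 or KRT17 appear in wounded or hyperproliferative skin. Hair keratins such as KRT81, KRT86 and KRT34 build the hair shaft. In the files' genome build, GRCh37 (hg19), the type I genes other than KRT18 lie on chromosome 17 between 38810917 and 39781094, and the type II genes lie with KRT18 on chromosome 12 between 52562780 and 53346690.

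Promoter sequences are shown because DAC blocks the methylation of CpG dinucleotides, and the members differ in how many they hold near their start. The RefSeq promoter table (GRCh38.p14) had an entry for 27 of the 46 genes, and the 250 bases before each listed start were placed in GRCh37 by an exact match, each at 1 position. KRT6A, KRT6B, KRT6C, KRT7, KRT13, KRT14, KRT15, KRT16, KRT17, KRT18, KRT19, KRT23, KRT77, KRT78, KRT80, KRT81, KRT83, KRT86 and KRT222 had no entry. The 6 below run 5′ to 3′ on the minus strand, with CG dinucleotides and the TATA box letters TATAAA in capitals. They are KRT8 (chr12:53320254-53320503), KRT10 (chr17:38978867-38979116), KRT20 (chr17:39041495-39041744), KRT12 (chr17:39023476-39023725), KRT34 (chr17:39538559-39538808) and KRT5 (chr12:52914179-52914428). KRT8 and KRT10 stand for genes read in all 6 lines after DAC, KRT20, KRT12 and KRT34 for genes much higher after DAC in A549 or PC9, and KRT5 for a gene that was high in PC9 and lower after DAC.
KRT8: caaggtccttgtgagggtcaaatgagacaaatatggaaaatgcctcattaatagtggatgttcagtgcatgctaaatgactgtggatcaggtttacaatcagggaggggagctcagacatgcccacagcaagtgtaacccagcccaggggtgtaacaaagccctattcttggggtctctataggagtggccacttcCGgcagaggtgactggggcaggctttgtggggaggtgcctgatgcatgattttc
KRT10: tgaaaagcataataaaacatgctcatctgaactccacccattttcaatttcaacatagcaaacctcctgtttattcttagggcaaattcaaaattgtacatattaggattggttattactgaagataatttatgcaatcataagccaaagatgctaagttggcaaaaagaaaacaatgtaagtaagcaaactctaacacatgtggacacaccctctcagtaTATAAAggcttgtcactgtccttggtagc
KRT20: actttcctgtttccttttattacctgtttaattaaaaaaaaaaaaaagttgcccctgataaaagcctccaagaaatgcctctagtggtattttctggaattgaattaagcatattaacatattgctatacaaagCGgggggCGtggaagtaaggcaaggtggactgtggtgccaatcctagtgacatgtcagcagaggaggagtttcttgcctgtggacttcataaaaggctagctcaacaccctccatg
KRT12: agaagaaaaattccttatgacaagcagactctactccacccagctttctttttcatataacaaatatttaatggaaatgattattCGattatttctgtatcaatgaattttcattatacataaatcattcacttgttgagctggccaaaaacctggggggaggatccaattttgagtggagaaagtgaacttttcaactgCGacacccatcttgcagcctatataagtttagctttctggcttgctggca
KRT34: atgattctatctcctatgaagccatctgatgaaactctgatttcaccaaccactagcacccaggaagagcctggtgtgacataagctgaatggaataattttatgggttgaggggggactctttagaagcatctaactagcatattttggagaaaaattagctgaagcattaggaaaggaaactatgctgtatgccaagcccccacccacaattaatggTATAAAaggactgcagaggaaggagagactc
KRT5: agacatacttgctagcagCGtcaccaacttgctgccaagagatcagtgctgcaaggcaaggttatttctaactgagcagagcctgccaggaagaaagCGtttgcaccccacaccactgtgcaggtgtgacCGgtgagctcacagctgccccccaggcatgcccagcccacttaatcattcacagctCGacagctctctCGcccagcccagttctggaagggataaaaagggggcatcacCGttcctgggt

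These windows held few CpG dinucleotides. KRT10 and KRT34 had 0, KRT8 had 1, KRT20 and KRT12 had 2 each, and KRT5 had 6. Over the 27 keratin windows the median was 2 (range 0 to 7), beside a median of 11 in 27305 promoters of the table, and 0 of 27 reached an observed-to-expected CpG ratio of 0.6, which 47.4% of all promoters did. The TATA box letters TATAAA, on either strand, were found in 14 of 27 keratin windows (51.9%) and in 11.1% of all promoters; among the 11 hair keratin windows they were found in 8 (72.7%). The box lay 29 bases before the start of KRT10 and 31 bases before that of KRT34. Searched the same way, Sp1 letters GGGCGG were in 2 of 27 (7.41%, beside 42.3%), AP-2 letters GCCNNNGGC in 5 (18.5%, beside 19.7%) and AP-1 letters TGANTCA in 0 of 27 (beside 6.6%). The KRT8 window belongs to a RefSeq start 21393 bases upstream of the start at which most of the gene is annotated. Of the 27 windows, 26 lay within 100 bases of the annotated start. The windows included 2 simple and 11 hair keratins. Of the 8 keratins that reached 100 FPKM in some library, all but KRT8 had no window. The shares above therefore describe these 27 windows and not the keratins as a whole.

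Gene-level reads numbered 22234485 to 25303899 in the 10 libraries of the other lines and 59735913 and 52634234 in H1299 Mock and DAC. Read numbers from 1 to 20 were even in 85.5% and 81.9% of cases in the H1299 libraries, against 39.2% to 41.5% elsewhere, so the counting intervals given below are too narrow for H1299. Levels are FPKM (fragments per kilobase of gene, scaled to library size), which allow genes to be compared per length. A change is the difference of log2(FPKM + 0.1), DAC minus Mock, unless a ratio of FPKM is given; this scale understates changes of genes below about 0.1 FPKM. Where a Mock library held 0 reads, the ratio is given as a lower bound against 3 reads, and 95% exact intervals of ratios cover counting error only. Marker genes are given as a description and do not check the lines' labels, because no expected level per line was set. The summed FPKM of EPCAM, CDH1, KRT8 and KRT18 ran from 0.986 in CL1-0 Mock to 3011 in A549 Mock. Of the latter sum, KRT8 and KRT18, which are members themselves, made 2983. The lung lineage markers NKX2-1, SFTPB, SFTPC and NAPSA summed to 0.174 to 0.780 in every library. PTPRC and CD3E, which define leukocytes, had at most 18 and 2 reads in a library. In bulk RNA, fewer cells that make a transcript and less of it per cell cannot be told apart.

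Mock levels spanned a wide range between lines. Of the 46 genes, 40 had more than 3 reads in at least 1 library, and KRT2, KRT27, KRT36, KRT71, KRT77 and KRT82 had more than 3 in none. At least 1 FPKM was reached by 25 genes in some library, and by KRT10 alone in all 12; 8 genes reached 100 FPKM somewhere (KRT6A, KRT7, KRT8, KRT13, KRT18, KRT19, KRT81 and KRT86). PC9 Mock had 15 keratins at 1 FPKM or more, A549 11, CL1-5 9, H1792 8, H1299 4 and CL1-0 1. After DAC the numbers were 18, 14, 11, 10, 6 and 2 in the same order, higher in each of the 6 lines. The same count over all genes was not taken, so these numbers are a description and not a trait of keratins.

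**Figure D1:**
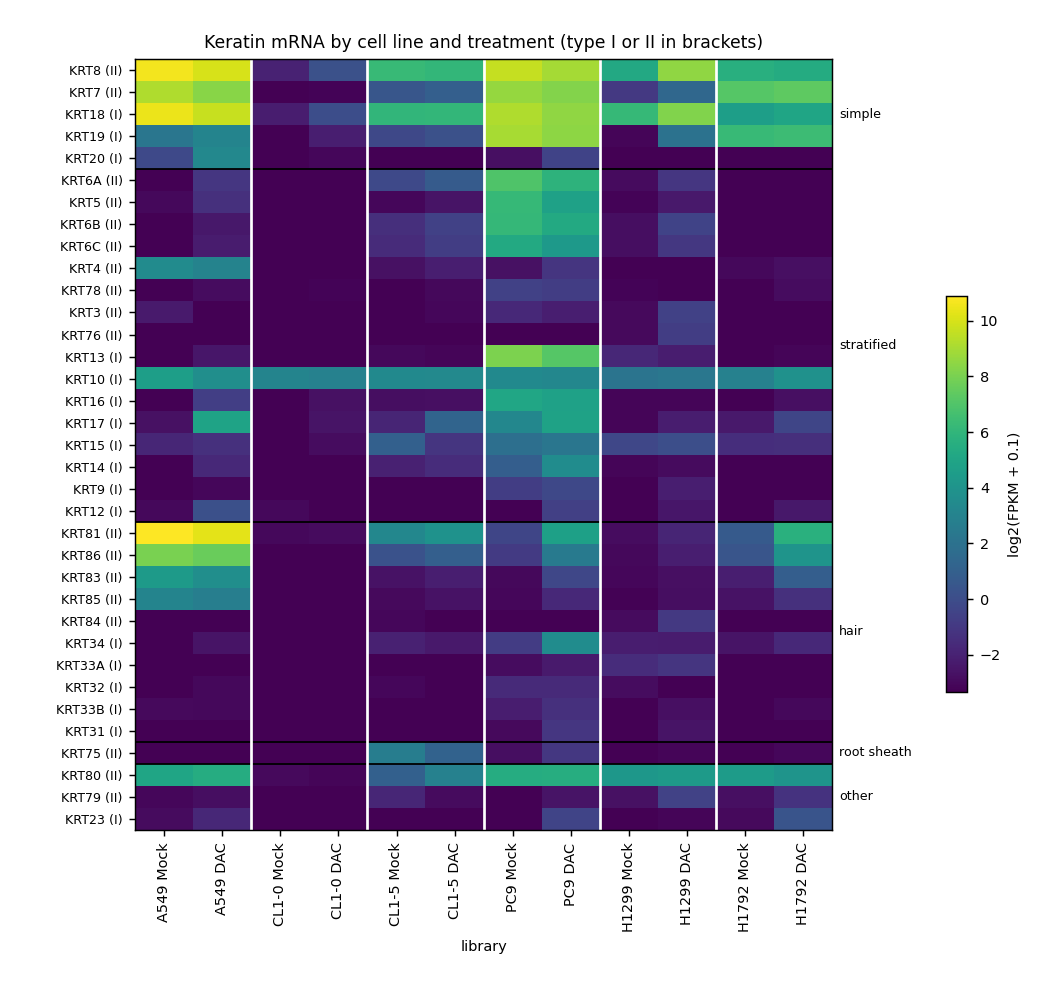
Levels of the keratin genes compared in at least 1 line, as log2(FPKM + 0.1) by color, with libraries on the x axis, genes on the y axis grouped by class, and type in brackets. A549 and PC9 hold the highest levels, CL1-0 shows little besides KRT10, and PC9 alone has high KRT5, KRT6A, KRT13 and KRT16.

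The summed level of all 46 keratins was 5794 FPKM in A549 Mock, 2986 in PC9, 320 in H1792, 177 in CL1-5, 136 in H1299 and 8.84 in CL1-0. These sums were 1.39%, 0.784%, 0.112%, 0.0583%, 0.0441% and 0.00255% of all FPKM in the respective libraries. After DAC the sum was lower in A549 (3738 FPKM, 0.645 of Mock) and PC9 (1972, 0.661 of Mock). It was higher in H1299 (702 FPKM, a 5.17-fold ratio) and H1792 (427, 1.34-fold), and close to Mock in CL1-5 (181) and CL1-0 (9.77). Scaling each library to the same sum of FPKM left A549 at 0.822, PC9 at 0.742 and H1299 at 5.31 of Mock.

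Simple keratins made up 61.5% of keratin FPKM in A549 Mock, 77.2% in PC9, 81.1% in CL1-5, 82.3% in H1299 and 89.8% in H1792. CL1-0 stood apart with 3.08%, since nearly all of its keratin FPKM came from KRT10. The class sums moved in different directions within a line. In A549 the simple sum went from 3562 to 2199 FPKM and the hair sum from 2163 to 1441, while the stratified sum went from 36.3 to 54.0. PC9 had a simple sum of 2306 and then 1510, a stratified sum of 635 and then 370, and a hair sum of 2.01 and then 45.6, a 22.7-fold ratio. H1792 resembled PC9 in the hair sum, which went from 3.07 to 70.7 FPKM (23.1-fold), but not in the others.

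**Figure D2:**
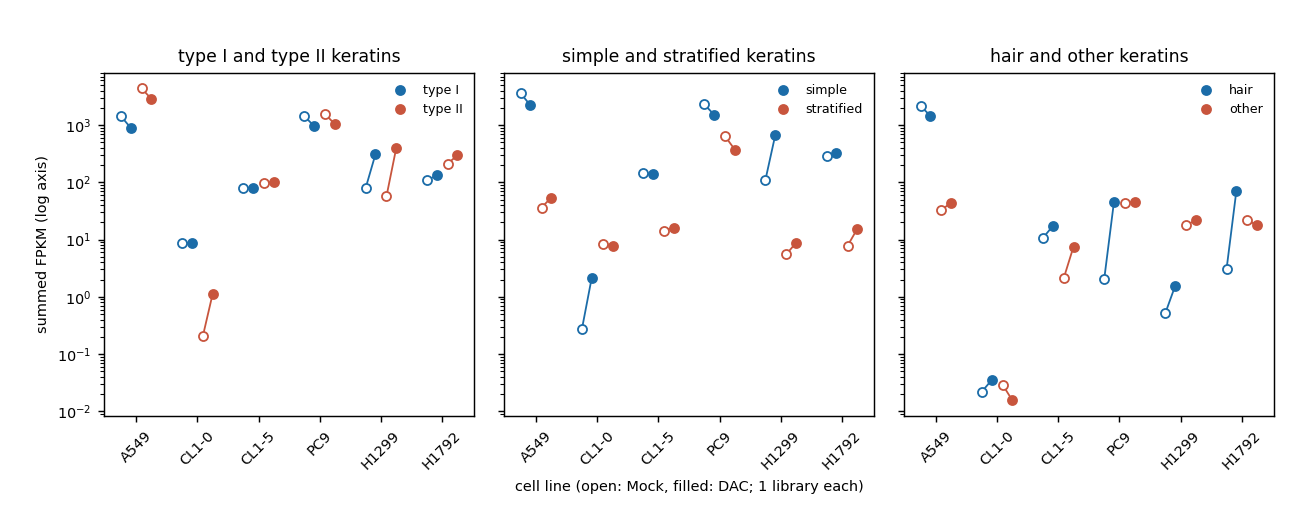
Summed FPKM on a log axis by cell line for type I and type II keratins, for simple and stratified keratins, and for hair and other keratins, with open circles for the Mock and filled circles for the DAC library. H1299 shows higher type I and type II sums after DAC, A549 and PC9 lower ones, and the hair sum is higher after DAC in PC9 and H1792.

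KRT8, the type II keratin of simple epithelia, lies on chromosome 12 from 53290971 to 53343738 on the minus strand, and its partner KRT18 begins beside it, from 53342655 to 53346690 on the plus strand. KRT8 measured 1578 FPKM in A549 Mock, 801 in PC9, 75.9 in CL1-5, 50.1 in H1792, 37.8 in H1299 and 0.154 in CL1-0. After DAC the levels were 1021 FPKM in A549, 500.4 in PC9, 367 in H1299, 68.4 in CL1-5, 41.7 in H1792 and 1.05 in CL1-0. Thus H1299 moved from the fifth to the third place, with a ratio of 9.72, and CL1-0 stayed lowest although its ratio was 6.82 (25 to 214 reads, interval 4.50 to 10.8). The other 4 lines were lower after DAC.

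KRT18 followed the same order of lines with small exceptions. Its Mock levels were 1405 FPKM in A549, 580 in PC9, 73.4 in H1299, 65.7 in CL1-5, 24.6 in H1792 and 0.118 in CL1-0. Its DAC levels were 832 FPKM in A549, 360 in PC9, 296 in H1299, 66.8 in CL1-5, 31.9 in H1792 and 0.924 in CL1-0. The ratio was 4.02 in H1299 and 7.80 in CL1-0 (9 to 88 reads, interval 3.92 to 17.6), and below 1 in A549 and PC9. In CL1-5 the direction for KRT18 turned when libraries were scaled to a common sum. In rank among all 36076 genes, KRT8 moved from 1148 to 99 and KRT18 from 550 to 127 in H1299, whereas in A549 Mock they stood at 30 and 37.

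The ratio of KRT8 to KRT18 FPKM stayed between 1.02 and 1.39 in A549, CL1-0, CL1-5 and PC9 under both treatments. In H1299 it was 0.515 in Mock and 1.24 after DAC, and in H1792 2.04 and then 1.31. On the log2 scale the partners' levels had a Pearson r of 0.99 (Spearman rho 0.83) over the 6 Mock libraries and 1.00 (rho 1) over the 6 DAC libraries, and their changes had an r of 0.94 over the 6 lines. These coefficients describe 6 points that share library depth. The partners also overlap: 20% of the exonic bases of KRT18 overlap those of KRT8 or AC107016.2, and 7.63% of those of KRT8 overlap KRT18. H1299 differed further in that reads were assigned to pseudogenes of both genes: KRT18P55 measured 67.6 FPKM in Mock and 277 after DAC, with at most 5 reads in any of the other 10 libraries. KRT8P41 measured 15.6 and then 161 FPKM there, with at most 6 reads elsewhere. Relative to its parent gene, KRT18P55 stood at 0.920 and 0.936 and KRT8P41 at 0.414 and 0.438, alike in Mock and DAC. The reads cannot be split further with the files used here, and the H1299 levels of KRT8 and KRT18 are uncertain to that extent.

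KRT7, the type II keratin of glandular and ductal epithelia, was high in A549 (574 FPKM in Mock, 328 after DAC), PC9 (399 and 297) and H1792 (137 and 166). It was low in CL1-5 (1.28 and 1.85 FPKM) and H1299 (0.406 and 2.58, or 95 and 557 reads, a 6.34-fold ratio), and CL1-0 had 0 and 1 read. The Mock libraries thus fell into 3 lines above 100 FPKM and 3 below 2, and the same 3 lines were above 100 after DAC.

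KRT19, the smallest type I keratin, was high in PC9 (526 FPKM in Mock, 351 after DAC) and H1792 (75.1 and 83.8). A549 had 4.63 and then 8.34 FPKM, and CL1-5 0.758 and then 1.04. H1299 went from 2 reads (0.0150 FPKM) to 484 (3.92 FPKM), a ratio of 262 with an interval of 72.1 to 2169. CL1-0 went from 0 to 9 reads, at least 2.39-fold higher. The change in H1299 was 5.13 on the log2 scale, beside 1.2 for the next line. In H1792 the direction turned when libraries were scaled to a common sum. Over the 5 lines other than CL1-0, the ratio of KRT7 to KRT19 went as high as 124 in A549 Mock and as low as 0.657 in H1299 DAC, so these genes kept no common proportion across lines.

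KRT20, a type I keratin of the gut lining and of Merkel cells on chromosome 17 from 39032141 to 39041494, had reads in few lines. A549 went from 0.784 to 9.85 FPKM (31 to 460 reads, a ratio of 12.6, interval 8.73 to 18.7). PC9 went from 2 to 27 reads (0.0521 to 0.632 FPKM, a ratio of 12.1, interval 3.05 to 105). CL1-5, H1299 and H1792 had no reads in either library. The promoter printed above lay under a peak in both A549 libraries, at a fold enrichment of 4.15 in Mock and 5.32 after DAC, and under a peak of 3.58 in the Mock library labelled PC9.

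KRT17, a type I keratin of basal and wounded epithelium on chromosome 17 from 39775694 to 39781094, was higher after DAC in all 6 lines. A549 went from 3 reads (0.0552 FPKM) to 1938 (30.2 FPKM), a ratio of 547 with an interval of 187 to 2656. CL1-5 went from 0.175 to 2.29 FPKM (13.1-fold) and PC9 from 9.42 to 28.4 (3.01-fold). H1792 went from 0.0953 to 0.690 FPKM (7.24-fold) and H1299 from 2 to 16 reads (a ratio of 8.66, interval 2.04 to 77.6), while CL1-0 went from 0 reads to 0.0666 FPKM, at least 1.33-fold higher. The Mock and DAC levels of different lines overlapped, because PC9 Mock was above 4 of the DAC libraries. KRT17 shares 10.2% of its exonic bases with another annotated gene.

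KRT14, the type I keratin of basal cells, was read mainly in PC9, where it went from 1.77 to 11.7 FPKM (6.62-fold). A549 went from 0 reads to 0.208 FPKM, at least 3.39-fold higher, and CL1-5 from 0.146 to 0.253. Its type II partner KRT5 moved the other way in PC9, from 73.7 to 27.7 FPKM (2.66-fold lower). In A549, KRT5 went from 2 to 32 reads (a ratio of 13.6, interval 3.46 to 117), reaching 0.295 FPKM. The ratio of KRT5 to KRT14 in PC9 was therefore 41.6 in Mock and 2.36 after DAC, and the changes of the partners had an r of -0.34 over the 6 lines.

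KRT6A, KRT6B and KRT16, which accompany KRT17 in activated epidermis, were high in PC9 alone. KRT6A went from 127 to 58.6 FPKM in PC9 (2.16-fold lower), KRT6B from 69.4 to 38.9 (1.79-fold lower) and KRT16 from 34.3 to 27.8. In A549, CL1-5 and H1299 the KRT6 genes had higher DAC values, and in CL1-0 and H1792 they had no reads: KRT6A went from 0.769 to 1.60 FPKM in CL1-5, from 0.0358 to 0.375 in H1299, and from 0 reads to 0.378 in A549 (at least 7.91-fold higher). KRT16 went from 0 reads to 0.511 FPKM in A549, at least 9.04-fold higher. KRT6B went from 0.275 to 0.577 FPKM in CL1-5 and from 0.0460 to 0.614 in H1299. KRT6A, KRT6B and KRT6C share 20.5%, 34.6% and 34.1% of their 75-base sequences with other genes, so their reads are uncertain in how they were divided. As KRT17 was higher and KRT6B lower, the ratio of KRT6B to KRT17 in PC9 went from 7.36 to 1.37.

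KRT13 and KRT4, the partners of wet stratified epithelia, were not found at high levels together. KRT13 was at 264 FPKM in PC9 Mock and 141 after DAC (1.87-fold lower), and at most 0.204 in other lines. KRT4 was at 11.3 FPKM in A549 Mock and 7.94 after DAC, and in PC9 it went from 0.0581 to 0.352. Their changes had an r of -0.81 over the 6 lines, as a description of 6 points. Of the corneal keratins, KRT12 went from 1 to 48 reads in A549 (1.02 FPKM after DAC, a ratio of 40.7, interval 6.96 to 1639) and from 0 reads to 0.555 FPKM in PC9 (at least 7.18-fold higher). Its partner KRT3 went from 4 to 70 reads in H1299 and was at 0.571 FPKM there.

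KRT10, a type I keratin of differentiating epidermis, was the gene read most evenly across the lines. Mock levels were 24.6 FPKM in A549, 10.6 in CL1-5, 10.6 in PC9, 8.50 in CL1-0, 7.37 in H1792 and 4.36 in H1299. DAC levels were 12.9, 10.1, 9.35, 7.42, 14.2 and 4.78 FPKM in the same order of lines. A549 was thus 1.91-fold lower and H1792 1.93-fold higher, and the remaining lines differed less. KRT15, a type I keratin of basal cells, was 5.35-fold lower in CL1-5 (1.92 to 0.359 FPKM) and between 1.06-fold and 1.55-fold higher in A549, PC9, H1299 and H1792, where the direction in H1792 turned when libraries were scaled to a common sum. KRT75, a type II keratin of the hair follicle, was 3.09-fold lower in CL1-5 (6.41 to 2.07 FPKM) and went from 2 to 21 reads in PC9. KRT78, a type II keratin of stratified epithelia, stayed below 1 FPKM in every library.

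Among the hair keratins, KRT81, a type II keratin of the hair cortex on chromosome 12 from 52679697 to 52685318, had the highest keratin level of A549, 1872 FPKM in Mock (rank 26 of 36076 genes) and 1227 after DAC. In the other lines it was low in Mock and higher after DAC. PC9 went from 0.673 to 26.4 FPKM (27 to 1177 reads, a ratio of 39.1, interval 26.8 to 59.7), and H1792 from 1.55 to 52.3 (74 to 2421 reads, a ratio of 33.8, interval 26.8 to 43.2). CL1-5 went from 9.35 to 15 FPKM (1.60-fold), H1299 from 4 to 18 reads, and CL1-0 had 1 and 2 reads. KRT81 shares 33.0% of its 75-base sequences with KRT86, and KRT86 shares 26.1% with KRT81, so reads of these neighbours are uncertain in how they were divided.

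The remaining hair keratins were chosen after their values were seen. KRT86 had 261 and then 195 FPKM in A549, and went from 0.422 to 5.45 in PC9 (12.9-fold) and from 1.26 to 15.9 in H1792 (12.6-fold). KRT83 had 21.6 and then 12.6 FPKM in A549, and went from 0.129 to 1.78 in H1792 (13.8-fold). KRT34, a type I hair keratin, went from 0.467 to 11.8 FPKM in PC9 (17 to 477 reads, a ratio of 25.2, interval 15.6 to 43.6) and was at most 0.214 in the other 5 lines. The type II hair keratins KRT81, KRT83, KRT85 and KRT86 were thus lower after DAC in A549, where they were highest, and higher in PC9 and H1792, where they were low; for KRT85 the direction in A549 turned when libraries were scaled to a common sum.

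KRT80 and KRT23 belong to no class above. KRT80, a type II keratin found in many epithelia, was between 16.1 and 45.1 FPKM in both libraries of A549, PC9, H1299 and H1792 and differed by at most 1.36-fold within each. In CL1-5 it went from 1.94 to 7.53 FPKM, a 3.87-fold ratio and the largest change of this gene in the 6 lines. KRT23, a type I keratin, went from 0 reads to 0.640 FPKM in PC9 (at least 12.9-fold higher) and from 2 to 84 reads in H1792 (1.21 FPKM, a ratio of 43.4, interval 11.7 to 364).

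In each line, genes whose FPKM averaged 0.1 or more over the pair were compared, and a difference of at least 2-fold on the log2(FPKM + 0.1) scale was counted. In A549, 8 of 20 keratins were at least 2-fold higher, beside 18.1% of all genes compared, and 0 were lower (all genes 7.37%). In CL1-0, 2 of 3 (KRT8 and KRT18) were higher, beside 9.32%, and 0 lower (2.79%). In CL1-5, 2 of 17 (KRT17 and KRT80) were higher, beside 8.35%, and 3 (KRT15, KRT75 and KRT79) lower, beside 6.45%. PC9 had 13 of 31 higher, beside 12.3%, and 2 (KRT5 and KRT6A) lower, beside 3.99%. H1299 had 12 of 18 higher, beside 12.9%, and 0 lower (4.71%). H1792 had 7 of 15 higher, beside 12.9%, and 0 lower (7.46%).

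Part of these counts is fixed by the filter, since a gene at nearly 0 in Mock is compared only if it is higher after DAC. The compared keratins with a Mock level below 0.1 FPKM numbered 9 in H1299, 8 in PC9, 7 in A549, 5 in H1792 and 0 in CL1-0 and CL1-5. Among those at 0.1 FPKM or more in Mock, the keratins at least 2-fold higher were KRT20 in A549 (of 13) and KRT8 and KRT18 in CL1-0 (of 3). In CL1-5 they were KRT17 and KRT80 (of 17), and in PC9 KRT14, KRT17, KRT34, KRT81 and KRT86 (of 23). H1299 had KRT7, KRT8 and KRT18 (of 9), and H1792 KRT81, KRT83 and KRT86 (of 10). At least 2-fold lower were 3 in CL1-5, 2 in PC9 and 0 in the other lines. The share of all genes was not taken at this cut. KRT8 and KRT18 in CL1-0, KRT17 in CL1-5 and KRT83 in H1792 were below 0.2 FPKM in Mock, where the filter still depends on the DAC level. KRT17 alone was at least 2-fold higher in 4 or more lines, 1 of the 12 keratins compared in 4 or more, beside 2.21% of all such genes. KRT5, KRT6A, KRT75 and KRT79 were at least 2-fold higher in some line and at least 2-fold lower in another.

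**Figure D3:**
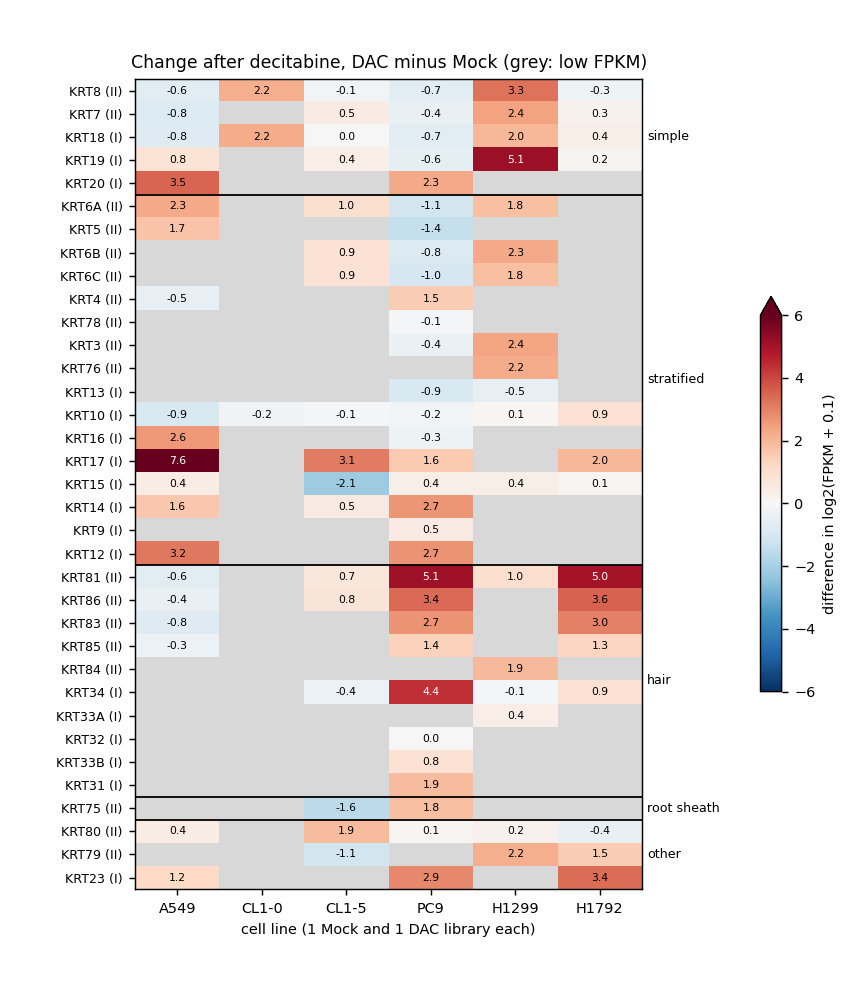
Difference in log2(FPKM + 0.1), DAC minus Mock, for the 35 keratins compared in at least 1 cell line, with lines on the x axis and genes on the y axis by class, and grey where the mean FPKM of the pair was below 0.1. KRT17 is higher in each of the 4 lines where it could be compared, most high keratins of A549 and PC9 are lower (KRT80 is not), and the simple keratins KRT7, KRT8, KRT18 and KRT19 are higher in H1299.

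The direction of a keratin's difference was also counted by its Mock level. Over the 6 lines there were 32 values with a Mock level of at least 10 FPKM, of which 23 were lower and 9 higher after DAC, beside 61.6% of all genes lower. Of 16 values from 1 to 10 FPKM, 12 were higher, beside 48.8% of all genes. Of 17 values from 0.2 to 1 FPKM, levels that pass the filter whatever the DAC level, 14 were higher, beside 51.3% of all genes. Lower Mock levels were not counted by direction, because there the filter keeps mostly genes that were higher after DAC. Of the 9 keratins at 10 FPKM or more in A549 Mock, 8 were lower, with a median of -0.63, beside 77.6% of all genes at that level and a median of -0.42. In PC9, 11 of 12 such keratins were lower, with a median of -0.68, beside 69.2% of all genes and a median of -0.15. H1299 went the other way, with 3 of 3 higher, beside 48.1% of all genes. Scaling to a common sum, which shifts all log2 changes by 0.35 in A549 and 0.17 in PC9, left these counts at 8 and 11.

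**Figure D4:**
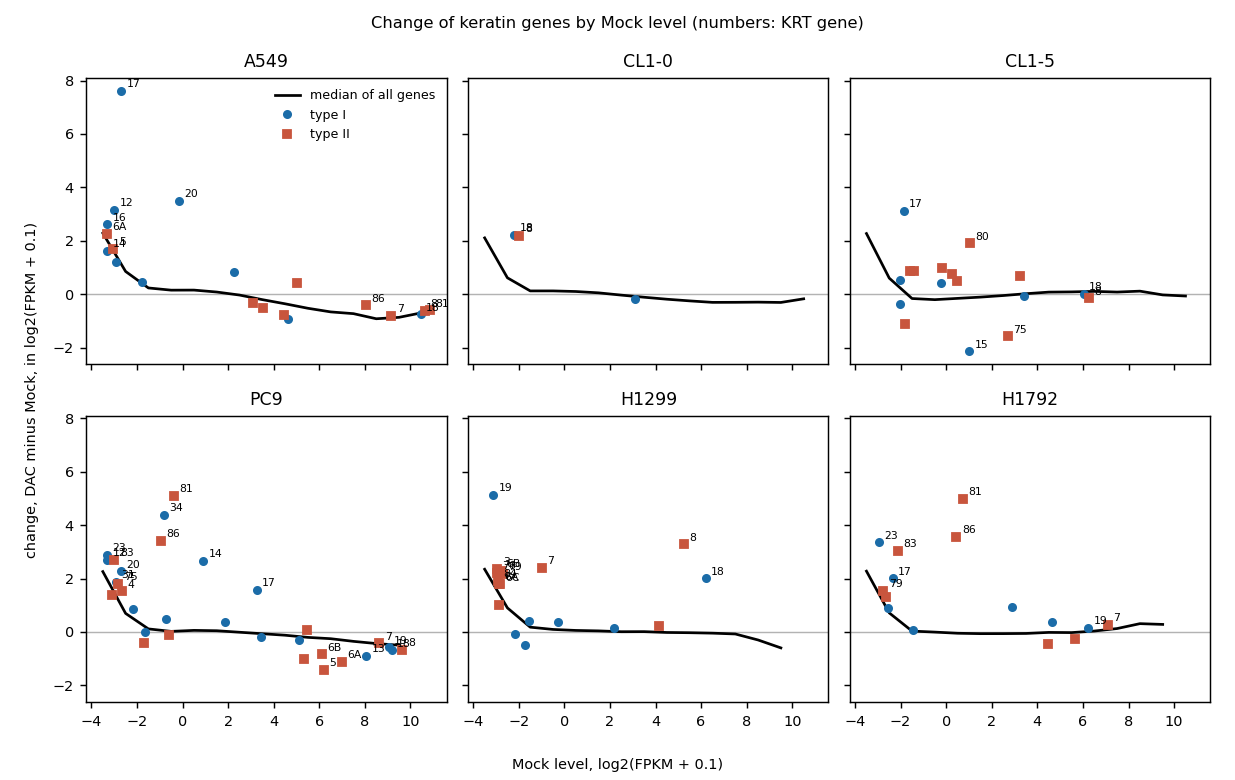
Change after DAC against the Mock level, both on the log2(FPKM + 0.1) scale, in 1 panel per cell line, with type I keratins as circles, type II as squares, gene numbers beside some points, and the median of all genes in bins of Mock level as a line. High keratins of A549 and PC9 other than KRT80 lie below 0, KRT8 and KRT18 of H1299 lie above the line at levels where the median gene is near 0, and KRT17 and KRT20 of A549 lie far above it.

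Across 5 lines (all but H1792), which were fitted together with the cell line as a block (limma on log2(FPKM + 0.1), Benjamini-Hochberg adjustment over 22603 genes), 0 of the 28 keratins tested passed an adjusted p of 0.05 in either direction, beside 0.119% of all genes higher and 0% lower. At an unadjusted p under 0.05, 2 keratins (KRT17 and KRT14) were higher, beside 8.07% of all genes, and 0 lower, beside 4.4%. limma-voom on the reads also called 0 keratins, beside 0.792% of all genes in either direction, with 5 higher at an unadjusted p under 0.05, beside 9.06% of all genes. KRT17 had a log2 fold change of 2.80 (SE 0.95, n = 5 lines, limma adjusted p = 0.326), higher in 5 of 5 lines, and 1.60 without A549. KRT14 had 1.00 (SE 0.42, limma adjusted p = 0.391), with 4 lines higher and 1 without reads. KRT19 had 1.40 (SE 0.73, limma adjusted p = 0.459), and leaving out H1299 lowers it to 0.47. KRT8 had 0.80 (SE 0.61, limma adjusted p = 0.589), was higher in 2 of 5 lines, and was at 0.18 without H1299 and 0.46 without CL1-0. KRT10 had -0.25 (SE 0.16, limma adjusted p = 0.545), lower in 4 of 5, and -0.08 without A549.

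The 28 tested keratins had 25 positive and 3 negative log2 fold changes, with a median of 0.55, beside 58.8% positive and a median of 0.07 in all genes tested. All 16 type II keratins tested were positive (median 0.46), and 9 of 12 type I (median 0.77), the exceptions being KRT10, KRT13 and KRT15. By class, 5 of 5 simple keratins were positive (median 0.80), 12 of 15 stratified (0.39) and 5 of 5 hair keratins tested (0.93). None of these counts is a test of the list, 18 of the 46 genes were too low to enter, and KRT3, KRT12 and KRT79 entered with a mean Mock level below 0.1 FPKM.

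Genes whose products work with keratins were looked up as fixed lists. Of 17 genes of desmosomes, hemidesmosomes and plakins, to which keratin filaments attach, 16 were tested, 4 were higher at an unadjusted p under 0.05 (beside 8.07% over the whole table), 0 lower (beside 4.4%), and 0 passed adjustment by limma. The highest was EVPL, which encodes envoplakin, at 1.85 (limma adjusted p = 0.333), and the lowest PKP2, which encodes plakophilin-2, at -0.17. Of 11 listed genes of the cornified envelope, 8 were tested, 1 was higher at an unadjusted p under 0.05 (beside 8.07%) and 0 passed adjustment; TCHH (trichohyalin) was highest at 1.03 and CNFN (cornifelin) lowest at -0.49. Of 12 regulators of keratin genes, 12 were tested, with positive values beside 58.8% of all genes, 3 passed an unadjusted p of 0.05 (beside 8.07%) and 0 passed adjustment; TP63, the regulator of basal epithelial fate, was highest at 0.89 (limma adjusted p = 0.439). Of 45 KRTAP genes, 23 had more than 3 reads in some library and KRTAP2-3 was highest, at 13.7 FPKM in H1299 DAC. EPCAM, an epithelial adhesion gene, had 1.69 (limma adjusted p = 0.309) and went from 0.0555 to 2.57 FPKM in H1299, where KRT8 was also higher. CDH1, the other epithelial marker that is no keratin, was at 0.0113 and then 0.0429 FPKM there (4 and 14 reads). In CL1-5, EPCAM went from 0.132 to 1.13 FPKM, while KRT8 was lower after DAC. The part of other epithelial genes in the keratin values was not tested.

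Open chromatin near keratin starts was counted as a broad peak listed within 3000 bp of the start of the gene. The library labels of CL1-5 and PC9 went against the mRNA: of 346 genes read at 1 FPKM or more in PC9 Mock and at most 3 reads in CL1-5 Mock, 71.4% showed a promoter peak under the label CL1-5 (Mock) and 38.7% under the label PC9. Of 390 genes read the other way round, 43.1% and 62.1% had one. KRT5, KRT13 and KRT16, which PC9 cells express, had a peak in the library labelled CL1-5 in 3 of 3 cases and in that labelled PC9 in 1. KRT75, the 1 keratin read the other way round, went with the labels: it had a peak under the label CL1-5 and none under PC9. Peaks of these libraries are therefore given by label only.

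In the libraries labelled A549, 14 keratins had a promoter peak in Mock and 18 after DAC; 7 of 32 without a peak gained it, beside 16.7% of all genes, and 3 of 14 lost it, beside 5.14%. In those labelled CL1-5 the numbers were 22 and 24, with 6 of 24 gained, beside 12.9%, and 4 of 22 lost, beside 5.14%. In those labelled PC9 they were 19 and 20, with 6 of 27 gained, beside 16.6%, and 5 of 19 lost, beside 4.76%. In those labelled H1299 they were 8 and 10, with 3 of 38 gained, beside 14.8%, and 1 of 8 lost, beside 5.45%. The mean difference was 2.25 ± 1.26 genes (SD, n = 4 lines), and it turned to -1.75 when equal numbers of peaks were used and to -1.5 with peaks of a q-value under 0.01. The DAC libraries had more peaks in all (63541 to 97584, against 45354 to 85710 in Mock).

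**Figure D5:**
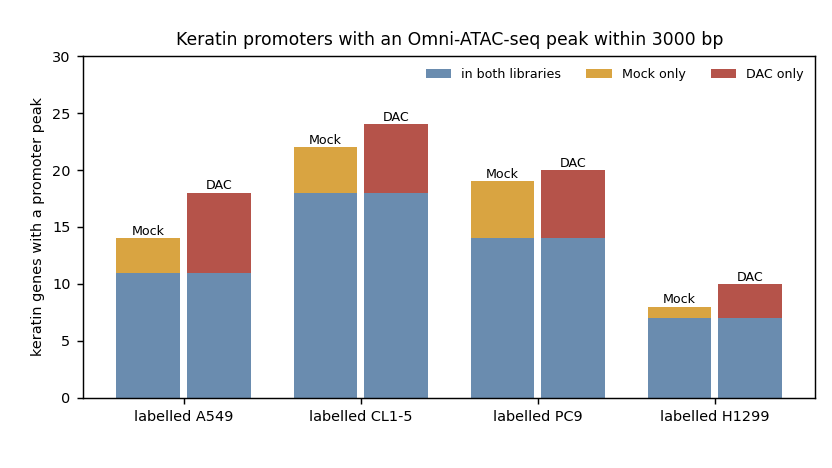
Number of the 46 keratin genes with an Omni-ATAC-seq peak within 3000 bp of the start, by library label, in Mock and DAC, divided into genes with a peak in both libraries and in 1 of them. Counts are higher after DAC under each of the 4 labels, by 1 to 4 genes, and lowest in H1299.

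Keratins that were read had peaks more often. In A549 Mock, 63.6% of the 11 keratins at 1 FPKM or more had a promoter peak and 20% of the 35 below it. In H1299 Mock the shares were 50% of 4 and 14.3% of 42. Divided by the Mock mRNA of another line, the A549 Mock peaks gave a like contrast. The shares were 66.7% and 21.6% by CL1-5, 53.3% and 19.4% by PC9, and 75% and 26.2% by H1299. The contrast in A549 was thus not particular to its own mRNA, and the share of all genes was not taken. KRT17 had no peak in A549 Mock and a peak over its start at a fold enrichment of 2.90 after DAC, and KRT16 gained a peak in A549 and in H1299. With equal numbers of peaks in Mock and DAC, the gains of KRT17 in A549 and of KRT7 and KRT16 in H1299 were not seen, while those of KRT16 in A549 and KRT18 in H1299 were. KRT7 and KRT18 gained a listed peak in H1299, but for KRT18 a peak of fold 3.80 over its start was present in Mock and listed there for its neighbour KRT8. KRT10 had no peak within 3000 bp in any of the 8 libraries although it was read in every line, and its printed promoter window, like those of KRT12, KRT34 and KRT5, was under no peak. The upstream KRT8 window printed above was under a peak in A549 at a fold of 7.85 in Mock and 5.77 after DAC, and in H1299 at 2.48 in Mock only.

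Over the whole type I cluster the peaks numbered 24 in A549 Mock and 31 after DAC, 33 and 39 under the label CL1-5, 35 and 40 under PC9, and 7 and 6 in H1299. The type II cluster with KRT18 held 55 and 58, 73 and 69, 50 and 60, and 34 and 45 in the same order. H1299 thus had few peaks over the type I genes, covering 0.350% of the 970 kb in Mock and 0.408% after DAC, where A549 had 1.34% and 1.53%. Per 10000 peaks of a library, the type II cluster of H1299 held 7.50 in Mock and 7.08 after DAC, so its larger number after DAC came with more peaks genome-wide. Mean fold enrichment was lower after DAC in both clusters and under all 4 labels, from 3.88 to 3.07 in the type II cluster of H1299, for example.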

How the data were processed

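mRNA-seq covered 6 lung cancer cell lines with 1 Mock and 1 DAC library each (12 libraries), and Omni-ATAC-seq 4 lines (8 libraries). The authors prepared stranded libraries from total RNA, trimmed reads with Trimmomatic, aligned them to hg19 (the methods name RSEM with bowtie2, the processing notes TopHat2 2.1.1), counted them per GENCODE gene with GenomicAlignments and deposited FPKM values from DESeq2 1.24.0. The strand setting of the counting is not given in the sources used here, so reads of overlapping genes cannot be told apart. The deposited table also holds a mean normalized signal, log2 fold changes, a score with its standard error, and p-values of the authors' own comparison, none of which was used. For ATAC, the authors used BWA 0.7.17-r1188, SAMtools 1.9, Picard 2.21.4, MACS2 2.2.5 and ChIPseeker 1.20.0, and deposited broad peaks per library with fold enrichment as a ratio, a peak score and −log10 p- and q-values. The peak lists hold no depth.

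All deposited values corresponded to whole reads within 0.01 read (100% in each library), and the recovered reads set the floor of 3 reads and the exact intervals (95%), which cover counting error only. Differences were taken on log2(FPKM + 0.1) where FPKM averaged 0.1 or more. limma 3.58.1 (R 4.3.3), tested on simulated data, was fitted to 10 libraries of 5 lines with an intensity trend and Benjamini-Hochberg adjustment at 0.05. H1792 was kept out of that fit, as in the study's own comparison, and entered an alternative. The pairing comes from the cell line: deviations of the Mock and DAC libraries correlated at 0.731 to 0.900 within a line and at most 0.115 between lines. The p-values rest on the spread of the DAC minus Mock change over the lines, and not on error within a line.

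The keratins, classes, pairs and lists were chosen with earlier results of these data known. Named with values were the simple keratins with KRT80 and KRT23, both genes of each pair with a member above 1 FPKM, the 5 largest and 5 smallest log2 fold changes, and genes at least 2-fold changed in 4 or more lines. Alternatives were another pseudocount, another filter, scaling, normalization, voom on the recovered reads, no block, H1792 included, each line left out, and other peak definitions. DNA methylation and protein were not analysed here.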

Additional observations from a re-analysis of the deposited data

Results flagged for a closer look

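In 6 of the 22 keratins named with values, the change of 1 line on the log2(FPKM + 0.1) scale stood apart from those of the other 5 lines. Chance gives this in about 5% of genes, and 9.23% of the 22603 genes tested showed it. Some of the 22 were named for a large or small log2 fold change, which a single line can produce, so the number 6 is a description only. KRT17 was at 7.61 in A549, where the next line was at 3.12, and KRT16 was at 2.61 in A549 with the next at 0.63. KRT19 was at 5.13 in H1299 with the next at 1.2, and KRT3 at 2.37 in H1299 with the next at 0.24. In CL1-5, KRT80 was at 1.9 with the next at 0.43, and KRT15 at -2.14 with the next at 0.06. The Mock values behind KRT3, KRT16, KRT17 and KRT19 were at most 4 reads. The largest and the smallest values came from A549, H1299 and CL1-5, and in none of these lines was there a further library to check them.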

How the results depend on the processing

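No keratin passed adjustment under any alternative, and the lowest limma adjusted p of a named keratin was 0.130. The median log2 fold change of 0.55 ranged from 0.08 (pseudocount 1) to 1.15 (pseudocount 0.01), and from 0.39 to 0.59 when each line was left out. Pairing: without the replicate block, 0 keratins were called and 0 were higher at an unadjusted p under 0.05, against 2 with it; with H1792, with voom or without PC9 there were 5, and without A549 1. Without the filter, 42 of 46 values were positive. Of the 28 keratins of the main fit 25 were positive, against 27 with pseudocount 0.01 and 23 with voom. With pseudocount 1 and with quantile normalization, 21 of 28 were positive. Shares of all genes under these alternatives were not taken, apart from voom (9.06% higher at an unadjusted p under 0.05), so the counts are descriptions only.

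Of 298 alternative values for 21 named keratins, 16 changed sign. With pseudocount 1 these were KRT5 (-0.17), KRT4 (-0.0025) and KRT75 (-0.17); with 0.01, KRT13 (0.20) and KRT15 (0.25). Quantile normalization turned KRT5 (-0.039), KRT3 (-0.10) and KRT78 (-0.31), and voom KRT7 (-0.0066), KRT5 (-0.39), KRT75 (-0.29) and KRT15 (0.040). Leaving out a line turned KRT5 without A549 (-0.0081), KRT15 without CL1-5 (0.41), KRT75 without PC9 (-0.34) and KRT7 without H1299 (-0.15); the cause was not tested.

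Counts at 2-fold depended on the pseudocount: with 1, those higher were 2 in A549, 0 in CL1-0, 5 in PC9, 4 in H1299 and 4 in H1792, and with 0.01 CL1-5 had 5. At 4-fold, 5 were higher in A549, 1 in CL1-5 and 8 in PC9, with 1 lower in CL1-5 and 0 in PC9; scaled to a common sum, PC9 had 1 lower. Shares of all genes were not taken for these alternative counts, which are descriptions only. The mean promoter-peak difference of 2.25 turned to -1.5 at a q-value under 0.01 and to -1.75 with equal numbers of peaks.

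Depth limits low keratins: below about 0.1 FPKM a value rests on a few reads, and 1 library per line and treatment gives no error within a line.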
